A study of Mus musculus with 24 samples.

Results

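The 7 mouse sirtuin genes (Sirt1 to Sirt7) and 3 genes that set the supply or the use of their co-substrate (Nampt, Nnmt and Cd38) were followed in isolated hepatocytes. They were picked by gene symbol from the count and FPKM tables, which makes 10 of 55421 listed genes, and all 10 were among the 13847 genes tested. The 24 libraries came from male mice, labelled C57BL/6J, with no engineered allele. The ND+veh group (n = 8) was given vehicle from 4 months of age and stayed on normal diet. The HFD+veh group (n = 7) was given vehicle in the same way and, from 18 months, a diet with 60% of its calories from fat for 9 weeks. The HFD+eRapa group (n = 9) ate that same fatty diet over the same weeks and was given encapsulated rapamycin, an inhibitor of the kinase mTOR, at 42 ppm from 4 months. Total counts per library ran from 17739252 to 25945134. No group received rapamycin on normal diet, so drug and diet are tested together against ND+veh. Cells were freed by collagenase perfusion and spun on a density gradient, and the hepatocyte genes Alb, Apoa1, Hnf4a and Asgr1 were detected in all 24 libraries. Transcripts of macrophage, endothelial and stellate cell markers were detected as well.

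NAD is a co-substrate of the sirtuins, which remove acetyl and other acyl groups from proteins and release nicotinamide as they do so. Nampt, the rate-limiting enzyme of the salvage route, turns nicotinamide back toward NAD. Nnmt methylates nicotinamide and so takes it out of that route, whereas Cd38 is a membrane enzyme that cleaves NAD and is abundant on immune cells. Sirt1, Sirt6 and Sirt7 are mainly nuclear and Sirt2 mainly cytosolic, while Sirt3, Sirt4 and Sirt5 reside in mitochondria, where Sirt5 acts chiefly as a desuccinylase, demalonylase and deglutarylase.

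Promoter windows are shown for 3 members whose transcript level changed with diet or drug, because 2 of them, Nampt and Cd38, both rose with the diet and both fell with eRapa, and their windows differ in base composition. RefSeq start sites on GRCm38.p6 gave a window for 9 of the 10 members, each 300 bases long (250 before the start site and 50 after it, all 3 shown here on the plus strand). The Nampt and Cd38 windows lie wholly inside the Gencode gene spans given below, so RefSeq and Gencode place the starts of these genes differently. Capitals mark the GC box GGGCGG on either strand.
Nampt, chr12:32820085-32820384: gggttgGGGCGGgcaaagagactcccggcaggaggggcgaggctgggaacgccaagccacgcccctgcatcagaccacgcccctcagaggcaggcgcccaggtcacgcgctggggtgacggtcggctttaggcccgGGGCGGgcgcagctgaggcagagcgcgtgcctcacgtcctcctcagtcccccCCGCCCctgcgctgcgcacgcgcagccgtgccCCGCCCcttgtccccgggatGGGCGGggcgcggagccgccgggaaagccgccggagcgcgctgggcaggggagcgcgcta
Cd38, chr5:43868559-43868858: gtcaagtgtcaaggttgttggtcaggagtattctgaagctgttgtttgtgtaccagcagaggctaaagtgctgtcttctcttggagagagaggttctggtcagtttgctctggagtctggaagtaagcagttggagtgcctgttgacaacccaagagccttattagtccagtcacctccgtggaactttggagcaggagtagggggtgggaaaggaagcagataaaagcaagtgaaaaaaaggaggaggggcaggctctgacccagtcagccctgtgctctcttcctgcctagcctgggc
Sirt5, chr13:43365285-43365584: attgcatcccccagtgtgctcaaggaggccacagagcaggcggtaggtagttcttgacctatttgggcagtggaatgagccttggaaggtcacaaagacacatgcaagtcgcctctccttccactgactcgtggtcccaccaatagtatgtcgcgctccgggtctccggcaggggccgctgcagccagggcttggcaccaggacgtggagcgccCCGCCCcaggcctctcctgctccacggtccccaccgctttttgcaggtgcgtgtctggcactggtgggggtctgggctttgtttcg
The Nampt window was 76.3% G or C, above 97.1% of 32851 promoter windows, and held 36 CpG dinucleotides and 5 GC boxes. The Cd38 window was 51.7% G or C with 1 CpG and no GC box, and the Sirt5 window was 62% G or C with 15 CpGs and 1 GC box. A GC box occurs in 35.7% of all windows. None of the 3 windows held an E-box (CACGTG, in 7.15% of windows), a TATA box (TATAAA, 13.6%), an interferon element (GAAANNGAAA, 3.44%) or a match to the NF-kB consensus (4.51%), on either strand. The Sirt1 window held 2 E-boxes and 7 GC boxes.

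Among the sirtuins, transcript level per gene length was led by Sirt3. FPKM (fragments scaled to transcript length and to the reads mapped in the library) averaged 50.7 ± 4.58 for Sirt3 in ND+veh (SD, n = 8), 24.7 ± 3.83 for Sirt2 and 21.2 ± 4.93 for Sirt7. Levels were lower for Sirt5 (7.49 ± 1.53 FPKM), Sirt4 (6.27 ± 1.62), Sirt1 (2.79 ± 0.365) and Sirt6 (1.37 ± 0.621). The animals' ranges did not overlap between Sirt3 and Sirt2, between Sirt7 and Sirt5 or between Sirt4 and Sirt1, and the other neighbours in this order overlapped. Within single animals Sirt2 was above Sirt7 in 8 of 8 ND+veh libraries, Sirt5 above Sirt4 in 7 of 8 and Sirt1 above Sirt6 in 8 of 8. The order of the 7 sirtuins by mean FPKM was the same in the other two groups.

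**Figure D1:**
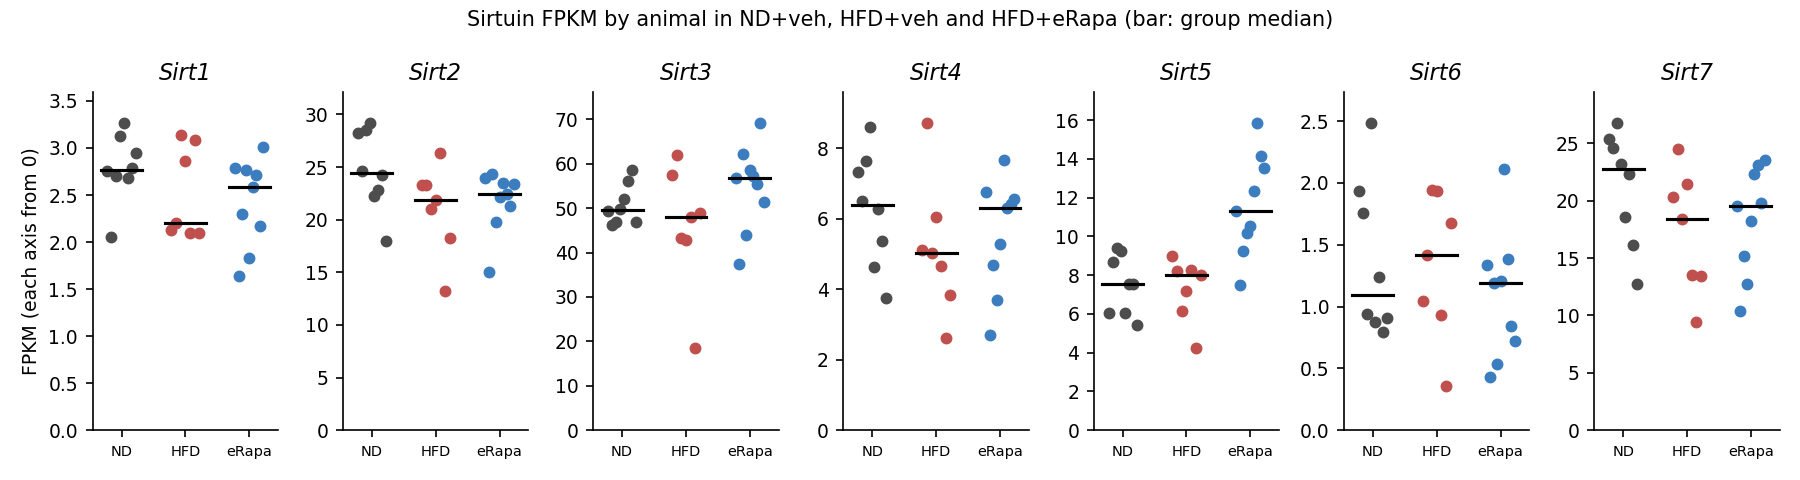
FPKM of each sirtuin (y axis, from 0, a separate scale per gene) in every animal of ND+veh (n = 8), HFD+veh (n = 7) and HFD+eRapa (n = 9), with a bar at the group median. The 3 groups overlap for all 7 genes, of which only Sirt5 passed the test in any contrast. The Sirt5 points of HFD+eRapa sit higher, with a median of 11.3 FPKM against 7.54 in ND+veh and 8.01 in HFD+veh.

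The 3 genes around the sirtuins had a different pattern on the FPKM scale. Nnmt averaged 47.2 ± 38.0 FPKM in ND+veh (SD, n = 8), 171 ± 75.6 in HFD+veh (n = 7) and 114 ± 32.7 in HFD+eRapa (n = 9). In ND+veh it was above Sirt3 in 3 of 8 animals, whereas in both high-fat groups it was above Sirt3 in every animal, 7 of 7 and 9 of 9. Nampt averaged 9.30 ± 3.54, 27.3 ± 16.0 and 10.7 ± 1.21 FPKM in the same order of groups, and Cd38 3.41 ± 2.22, 19.4 ± 23.0 and 2.89 ± 2.58. The Cd38 mean in HFD+veh had an SD larger than itself.

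The first comparison asked what 9 weeks of high-fat diet did to these genes. Compared with ND+veh, Nampt, Nnmt and Cd38 rose in HFD+veh and no sirtuin was called, so that 3 of 10 members rose. For all genes tested, 16.0% were called higher and 9.86% lower, and in 2.44% the 2 groups' animals had no overlap. Called means an adjusted p under 0.05 in edgeR's quasi-likelihood test over all genes tested. No member was called lower (0 at an unadjusted p under 0.05, and 0 by DESeq2 and limma voom).

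Nampt, the salvage enzyme (ENSMUSG00000020572.8, chr12:32819545-32853349, GRCm38, plus strand), separated the groups completely. Its level per library in CPM, the count scaled to a common library size, ran from 29.7 over a median of 41.9 to 64.4 in ND+veh and from 69.5 over 119 to 286 in HFD+veh, and each of the 7 HFD+veh values exceeded all 8 of ND+veh. The log2 fold change was 1.56 ± 0.234 (SE; 2.95-fold higher; adjusted p = 0.000120). HFD+veh replicate 6 held the highest value, and without it the log2 fold change was 1.20 with an adjusted p of 0.000118.

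Nnmt, which methylates nicotinamide (ENSMUSG00000032271.13, chr9:48591877-48605153, minus strand), showed a larger but more scattered rise. It ran from 5.66 over 28.5 to 89.0 CPM in ND+veh and from 51.1 over 145 to 281 CPM in HFD+veh. The groups overlapped, since 3 ND+veh animals (replicates 1 to 3, at 89.0, 69.6 and 60.8 CPM) exceeded the lowest HFD+veh animal, yet the median of ND+veh was exceeded by all 7 HFD+veh animals. The log2 fold change was 1.90 ± 0.453 (SE; 3.73-fold; adjusted p = 0.00576).

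Cd38, the NAD-cleaving ectoenzyme (ENSMUSG00000029084.5, chr5:43868553-43912375, plus strand), had the largest fold change and the widest spread. It ran from 2.16 over 8.92 to 27.3 CPM in ND+veh and from 5.06 over 47.3 to 217 CPM in HFD+veh. The groups overlapped, because HFD+veh replicates 1 and 2 (5.06 and 6.34 CPM) lay below the ND+veh median while 5 of 7 lay above it. The log2 fold change was 2.44 ± 0.707 (SE; 5.43-fold; adjusted p = 0.0167). Without HFD+veh replicate 6, the animal at 217 CPM, it was 1.61 with an adjusted p of 0.0915, and the call was lost. It was also lost by limma voom (1.78, adjusted p = 0.0735) and with log2(FPKM + 1) in limma (1.54, adjusted p = 0.0590).

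**Figure D2:**
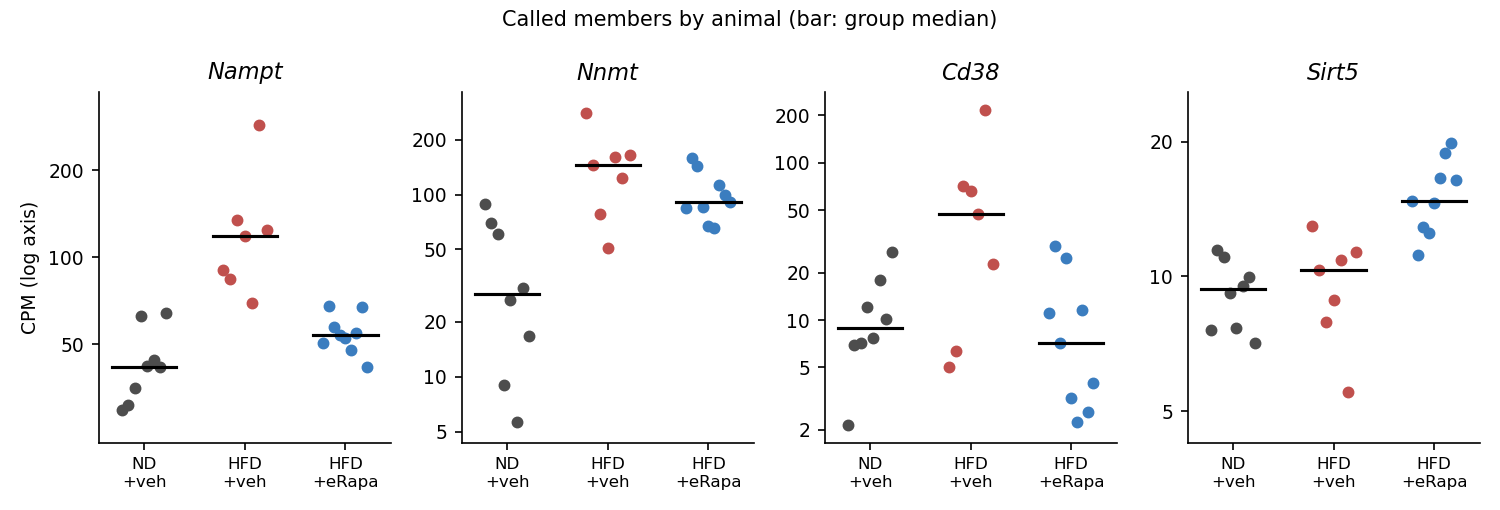
CPM (y axis, log scale, a separate range per gene) of the 4 members called in at least 1 contrast, 1 point per animal and a bar at the group median. Nampt is at 69.5 CPM or more in all HFD+veh animals and at 67.6 CPM or less in all others. Nnmt spans 65.1 to 159 CPM in HFD+eRapa, Cd38 spans 5.06 to 217 CPM within HFD+veh, and Sirt5 is raised in HFD+eRapa.

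The second comparison set HFD+eRapa against HFD+veh, both on the high-fat diet. The drug began at 4 months and the diet at 18 months, so effects of the drug before and during the diet cannot be told apart. Relative to HFD+veh, Nampt and Cd38 fell and Sirt5 rose, so 2 members were called lower and 1 higher. Across all genes tested 21.1% were called lower and 10.9% higher, and in 2.59% the groups did not overlap. This contrast shares the HFD+veh animals with the first, so opposite directions in the pair of contrasts are not independent observations.

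Nampt in HFD+eRapa ran from 41.6 over 53.9 to 67.6 CPM, below every HFD+veh animal in 9 of 9. Its log2 fold change was -1.24 ± 0.225 (SE; adjusted p = 0.000505), or 0.423 of the HFD+veh level. Cd38 ran from 2.25 over 7.13 to 29.6 CPM, and all 9 animals were below the HFD+veh median although the groups overlapped. The Cd38 log2 fold change was -2.54 ± 0.681 (SE; adjusted p = 0.00736), and without HFD+veh replicate 6 it was -1.70 with an adjusted p of 0.0544. Nnmt was not called: at 65.1 over 91.3 to 159 CPM it differed from HFD+veh by -0.51 ± 0.430 on the log2 scale (adjusted p = 0.388), with an interval of -1.35 to 0.34. That interval includes the Nampt change of -1.24, and 1 of 9 HFD+eRapa animals lay above the HFD+veh median of Nnmt. A difference between the genes was not tested.

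Sirt5 was the only sirtuin called in any contrast. Its level ran from 5.52 over 10.3 to 12.9 CPM in HFD+veh and from 11.2 over 14.7 to 19.9 CPM in HFD+eRapa, and although the extremes overlapped, 9 of 9 HFD+eRapa animals lay above the HFD+veh median. The log2 fold change was 0.66 ± 0.156 (SE; 1.58-fold; adjusted p = 0.00346). Leaving out any one library kept it between 0.57 and 0.75, with adjusted p at most 0.01. Sirt5 (ENSMUSG00000054021.6) lies on chr13:43365496-43395203 (GRCm38, plus strand), and like Nampt, Nnmt and Cd38 it shares no exon base with another gene of the annotation used.

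In the third comparison HFD+eRapa was set against ND+veh. Sirt5 and Nnmt were higher, 2 of 10 members, where 6.93% of all genes tested were called higher, 6.54% lower, and 3.37% did not overlap. Sirt5 ran from 7.11 over 9.36 to 11.5 CPM in ND+veh, and the log2 fold change was 0.73 ± 0.15 (SE; 1.66-fold; adjusted p = 0.00172), with 9 of 9 HFD+eRapa animals above the ND+veh median. Nnmt was also above the ND+veh median in 9 of 9 animals (log2 fold change 1.39 ± 0.429, SE; 2.62-fold; adjusted p = 0.0318). That call was lost when any one of 6 libraries was left out (ND+veh replicates 4, 5, 7 and 8, HFD+eRapa replicates 2 and 3), where the log2 fold change stayed at 1.24 or more and the adjusted p reached 0.0595. Nampt (0.32 ± 0.219, adjusted p = 0.385) and Cd38 (-0.10 ± 0.650, adjusted p = 0.952) did not pass the test, with intervals of -0.11 to 0.75 and -1.37 to 1.18.

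**Figure D3:**
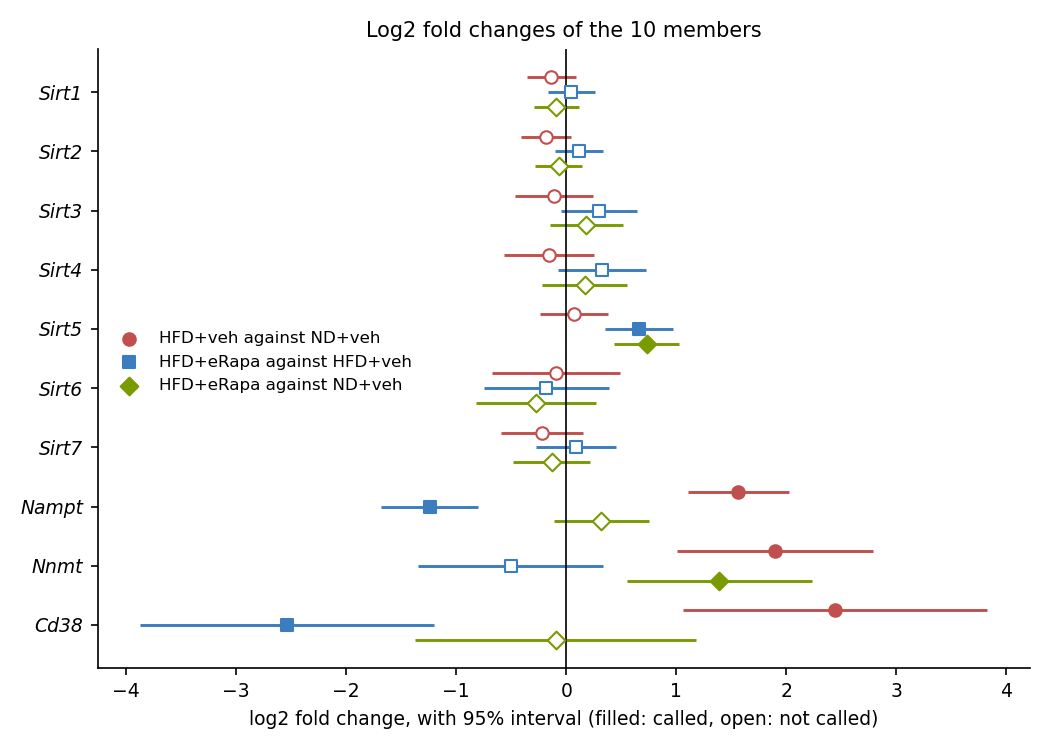
Log2 fold changes (x axis) with 95% intervals for the 10 members (rows) in the 3 contrasts, filled where called and open where not. The 3 Cd38 intervals are the widest, those of Sirt1 and Sirt2 stay between -0.41 and 0.34, and filled symbols appear for Sirt5, Nampt, Nnmt and Cd38.

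The other 6 sirtuins did not pass the test in any of the 3 contrasts, and their intervals differed in width. For Sirt1, the deacetylase best known for its metabolic roles, the log2 fold change of HFD+veh over ND+veh was -0.13 (interval -0.35 to 0.09) and that of HFD+eRapa over HFD+veh 0.04 (-0.17 to 0.26). For Sirt3, the main mitochondrial deacetylase, the same contrasts gave -0.11 (-0.47 to 0.24) and 0.29 (-0.05 to 0.64). Sirt4 gave -0.16 (-0.57 to 0.25) and 0.32 (-0.08 to 0.72), and the second of these intervals includes the Sirt5 change of 0.66. Sirt2 gave -0.18 (-0.41 to 0.04) and 0.12 (-0.10 to 0.34), and Sirt7 -0.22 (-0.59 to 0.15) and 0.09 (-0.28 to 0.45). Sirt6, at 0.962 to 3.94 CPM the lowest of the family, had the widest sirtuin intervals (-0.68 to 0.49 and -0.75 to 0.39). Its CPM varied between animals with a coefficient of variation of 35.7% to 40.7% within groups, on 20 to 125 counts per library. In HFD+veh against ND+veh no sirtuin was called (0 of 7 by edgeR, 0 at an unadjusted p under 0.05, 0 by DESeq2 and limma voom). HFD+veh replicate 6 held the lowest value of its group for Sirt2 (23.7 CPM), Sirt3 (19.8), Sirt4 (2.66), Sirt5 (5.52), Sirt6 (0.97) and Sirt7 (14.8), and the highest for Sirt1 (13.1). Sirt3 shares 7% of its exon bases with Ric8a and 5.73% with Psmd13, both on the other strand, and counting by strand is not stated, so some of its reads may belong to those genes.

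Because Cd38 is abundant on immune cells, marker levels of other cell types were placed beside the members. The summed CPM of 27 macrophage, lymphocyte and neutrophil markers ran from 47.5 over 270 to 1329 in ND+veh, from 184 over 2684 to 5298 in HFD+veh and from 17.6 over 212 to 1093 in HFD+eRapa. In these bulk samples fewer cells of a type and less RNA per cell cannot be told apart. The 11 macrophage markers made up most of that sum, and none of them was at 0 in any library, whereas the neutrophil marker Ly6g was at 0 in 22 of 24 and the T cell marker Cd8a in 9 of 24. Macrophage markers averaged 2078 CPM in HFD+veh against 408 in ND+veh (exact permutation p = 0.0174, adjusted over 21 comparisons 0.0305) and 330 in HFD+eRapa (exact permutation p = 0.00603, adjusted 0.0172).

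The other lists moved similarly in the second contrast. Summed endothelial markers averaged 434 CPM in HFD+veh, 247 in ND+veh and 158 in HFD+eRapa, and the difference between both high-fat groups passed the test (exact permutation p = 0.00962, adjusted 0.0202). Stellate markers averaged 216, 120 and 39.9 CPM, and cholangiocyte markers 144, 7.91 and 27.5 CPM, most of it Spp1. Spp1 reached 348 CPM, whereas Krt7, Krt19 and Epcam of the same list did not exceed 4.07 CPM in any library. Lymphocyte markers averaged 136 CPM in HFD+veh, 13.1 in ND+veh and 13.6 in HFD+eRapa, and neutrophil markers 19.2, 2.47 and 3.73 CPM. In the lymphocyte list Ptprc, a gene of leukocytes at large, reached 461 CPM, and no other gene exceeded 36.4 CPM. Only 4 of the 10 lymphocyte genes passed the filter, so this sum does not single out lymphocytes. Between both high-fat groups the adjusted exact permutation p was 0.0162 for stellate and for cholangiocyte markers, 0.0202 for lymphocyte and 0.0172 for neutrophil markers. In HFD+eRapa against ND+veh, the contrast in which Sirt5 and Nnmt were called, stellate markers were lower (adjusted exact permutation p = 0.0162) and cholangiocyte markers higher (adjusted exact permutation p = 0.00950). Summed hepatocyte markers did not pass the test in the 3 contrasts, where the lowest exact permutation p was 0.0697 (adjusted 0.113). Alb, at a median of 85359 CPM, made up most of that sum. Of the 8 hepatocyte markers, Apoa1 and Cyp2e1 were called lower in HFD+veh against ND+veh (-0.68 and -1.93), and Apoa1, Asgr1 and Cyp2e1 were called higher in HFD+eRapa against HFD+veh (0.71, 0.48 and 2.04). Their mean z-score differed by 0.52 in that contrast, in the opposite direction to the sum (adjusted exact permutation p = 0.208).

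Cd38 followed the immune markers animal by animal inside each group. Over the 8 ND+veh animals Pearson's r between Cd38 CPM and the summed immune marker CPM was 0.989 (exact permutation p = 4.96e-05, adjusted over 9 relations 0.000446) and Spearman's rho 0.976 (exact permutation p = 0.000397), with r = 0.928 without the 2 animals farthest from the median. In HFD+veh r was 0.915 (n = 7, exact permutation p = 0.000595, adjusted 0.00198) and rho 0.964 (exact permutation p = 0.00278), with r = 0.961 without the 2 farthest. In HFD+eRapa r was 0.930 (n = 9, exact permutation p = 0.000661, adjusted 0.00198) and rho 0.933 (exact permutation p = 0.000750), with r = 0.795 without the 2 farthest. HFD+veh replicates 1 and 2, lowest in Cd38, also had the lowest immune sums of that group, 184 CPM each, and replicate 6 had the highest of both, 217 CPM of Cd38 and 5298 CPM of markers. Once the immune score entered as a covariate, the Cd38 log2 fold change was 0.02 for HFD+veh over ND+veh (adjusted p = 0.973) and -0.02 for HFD+eRapa over HFD+veh (adjusted p = 0.970), and neither was called. That score includes the leukocyte gene Ptprc, and score and group are correlated. The part of immune cells in the Cd38 difference was therefore not tested by this fit. With the endothelial, stellate and cholangiocyte score the Cd38 difference was 0.51 for HFD+veh over ND+veh (adjusted p = 0.286), 0.27 for HFD+eRapa over HFD+veh (adjusted p = 0.728) and 0.78 for HFD+eRapa over ND+veh (adjusted p = 0.0428), so the direction of the second turned.

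**Figure D4:**
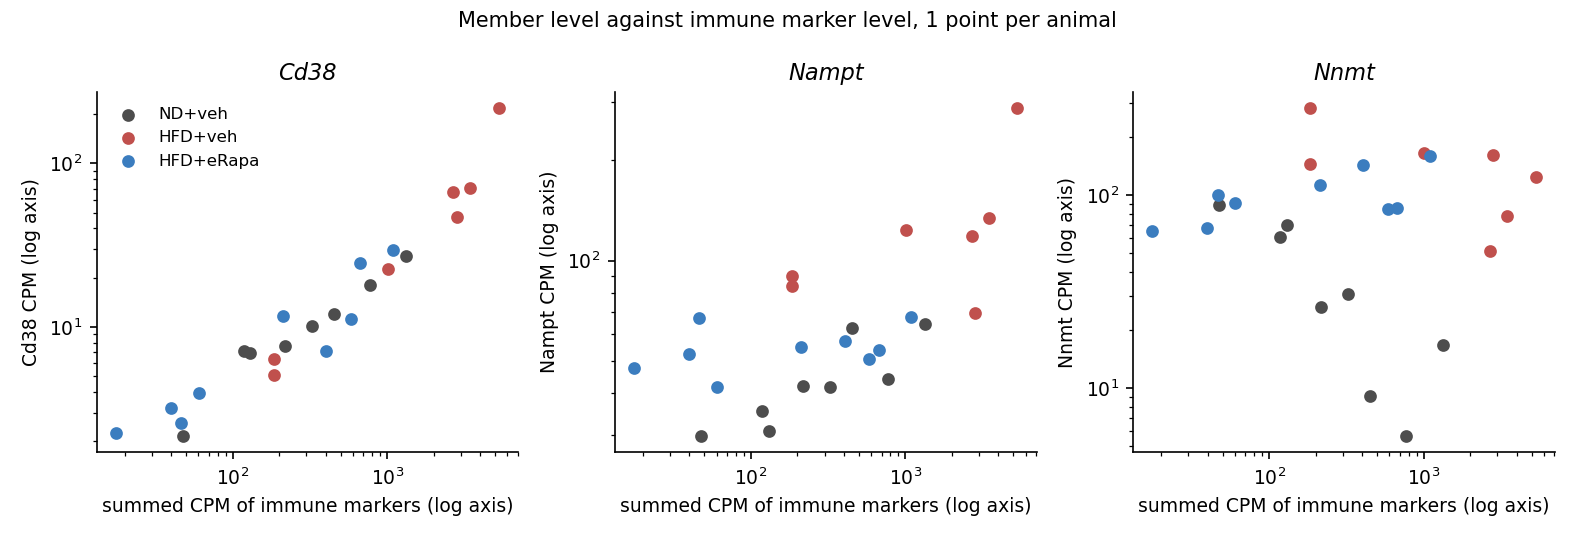
CPM of Cd38, Nampt and Nnmt (y axes, log scale) against the summed CPM of 27 immune markers (x axis, log scale), 1 point per animal and a colour per group. Cd38 lies along 1 band for all 3 groups, the HFD+veh points of Nampt sit above those of other groups where marker levels overlap, and Nnmt falls with rising marker level in ND+veh.

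For Nampt, r and rho with the markers were below those of Cd38 in each group, a difference that was not tested. In ND+veh r was 0.783 (n = 8, exact permutation p = 0.0266, adjusted 0.0599) and rho 0.929 (exact permutation p = 0.00223, adjusted 0.00625), with r = 0.937 without the 2 farthest. In HFD+veh r was 0.76 (n = 7, exact permutation p = 0.0333, adjusted 0.0600) and rho 0.571 (exact permutation p = 0.200), and without the 2 farthest r was 0.279, so this relation rests on those animals. In HFD+eRapa r was 0.455 (n = 9, exact permutation p = 0.212), rho 0.450 (exact permutation p = 0.230) and r without the 2 farthest 0.0415. HFD+veh replicates 1 and 2, with marker sums of 184 CPM, held 90.1 and 84.1 CPM of Nampt, above the highest ND+veh animal (64.4 CPM at a marker sum of 1329 CPM). With the immune covariate Nampt stayed called in both contrasts (log2 fold changes 1.18 and -0.75). Of both calls, only that of HFD+veh over ND+veh stayed with the endothelial, stellate and cholangiocyte score. Score and group are correlated in these fits, and the part of other cell types in the Nampt difference was not tested.

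Nnmt ran opposite to the immune markers in ND+veh. Pearson's r was -0.680 (n = 8, exact permutation p = 0.0515, adjusted 0.0772) and Spearman's rho -0.881 (exact permutation p = 0.00724, adjusted 0.0130), with r = -0.927 without the 2 farthest animals. The ND+veh animals with the 3 lowest marker sums (47.5, 118 and 130 CPM) held the 3 highest Nnmt levels, 89.0, 60.8 and 69.6 CPM. In HFD+veh r was -0.576 (n = 7, exact permutation p = 0.176), rho -0.607 (exact permutation p = 0.167) and r without the 2 farthest -0.574. In HFD+eRapa r was 0.631 (n = 9, exact permutation p = 0.0679), rho 0.583 (exact permutation p = 0.108) and r without the 2 farthest 0.433. Neither of these passed the test, and the difference between groups in this relation was not tested. With the immune covariate Nnmt remained called for HFD+veh over ND+veh (2.47) and HFD+eRapa over ND+veh (1.58).

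Sirt5 in HFD+eRapa was above the median of HFD+veh in every animal, but the same covariates reduced its difference. The log2 fold change over HFD+veh was 0.40 (adjusted p = 0.132) with the immune score and 0.39 (adjusted p = 0.202) with the endothelial, stellate and cholangiocyte score, and neither was called. Over ND+veh Sirt5 was called with both scores, at 0.68 and 0.60. The part of other cell types in the Sirt5 difference was not tested beyond these fits, in which score and group are correlated. With the endothelial, stellate and cholangiocyte score, the Nampt difference between HFD+eRapa and HFD+veh was -0.69 (adjusted p = 0.0757) and was not called.

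The wider pathway was read from 47 further genes in 7 lists, of which 42 were tested. Between HFD+veh and ND+veh 7 were called higher and 2 lower, between HFD+eRapa and HFD+veh 5 higher and 8 lower, and between HFD+eRapa and ND+veh 6 higher and 3 lower. Over all genes tested the shares called higher and lower were 16.0% and 9.86%, 10.9% and 21.1%, and 6.93% and 6.54% in the same order. The count called higher in the first contrast, and both counts of the second, stand near these shares. Whether any count of the 42 differs from its share was not tested. The median log2 fold change over the 42 genes was 0.05, 0.07 and 0.02, beside 0.05, -0.04 and -0.03 over all genes tested.

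In the list for synthesis from tryptophan and nicotinic acid, HFD+veh against ND+veh gave 2 of 10 tested genes higher and 1 lower, and HFD+eRapa against HFD+veh gave 1 of 10 lower. Tdo2, which opens the tryptophan route in liver, ran from 867 to 1257 CPM in ND+veh and from 1465 to 2792 CPM in HFD+veh, with no overlap (log2 fold change 0.96 ± 0.159, SE; adjusted p = 0.000341), and was lower in HFD+eRapa relative to HFD+veh by -0.72 ± 0.154 (adjusted p = 0.00181). Kmo, the hydroxylase of the same route, did not overlap between HFD+veh and ND+veh (0.66 ± 0.124, adjusted p = 0.000902) and stayed high in HFD+eRapa (0.85 ± 0.118 over ND+veh, adjusted p = 3.22e-05). Acmsd, which diverts the route away from NAD, was lower in HFD+eRapa relative to ND+veh (-0.73 ± 0.240, adjusted p = 0.0436), and that call was lost in 13 of the fits with 1 library left out. Naprt, which starts from nicotinic acid and is named after its values were seen as the remaining called gene of this list, was lower in HFD+veh relative to ND+veh (-0.65 ± 0.196, adjusted p = 0.0195). Qprt, at the entry of quinolinate into NAD synthesis, was not called in any contrast of the main fit (0.32, 0.15 and 0.47), though its HFD+eRapa and ND+veh animals did not overlap. Some alternatives called it higher in HFD+eRapa against ND+veh. Among them were the fit of only those groups (0.47, adjusted p = 0.000784) and that without HFD+veh replicate 6 (0.45, adjusted p = 0.0220). Without that replicate it was also called in HFD+veh against ND+veh (0.43, adjusted p = 0.0493).

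In the salvage list, Nmnat1, the nuclear adenylyltransferase that follows Nampt, was not called (-0.15, 0.22 and 0.07). Nmnat3, its mitochondrial relative at a few CPM, was higher in HFD+eRapa relative to ND+veh (0.78 ± 0.202, adjusted p = 0.00990), a call lost in the 3 limma fits of FPKM. Its rise in HFD+veh over ND+veh (0.59 ± 0.213, adjusted p = 0.0433) was lost under 19 of the alternatives. Nt5e, an ecto-nucleotidase also found on cells other than hepatocytes, was lower in HFD+eRapa relative to HFD+veh (-1.41 ± 0.413, adjusted p = 0.0123), and with the immune covariate it was -0.80 (adjusted p = 0.284) and not called. For clearance of nicotinamide products, the aldehyde oxidase Aox3 rose with eRapa from 275 to 946 CPM in HFD+veh to 860 to 1757 CPM in HFD+eRapa (1.20 ± 0.228, adjusted p = 0.000716), while Aox1 was not called (0.22, adjusted p = 0.321).

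**Figure D5:**
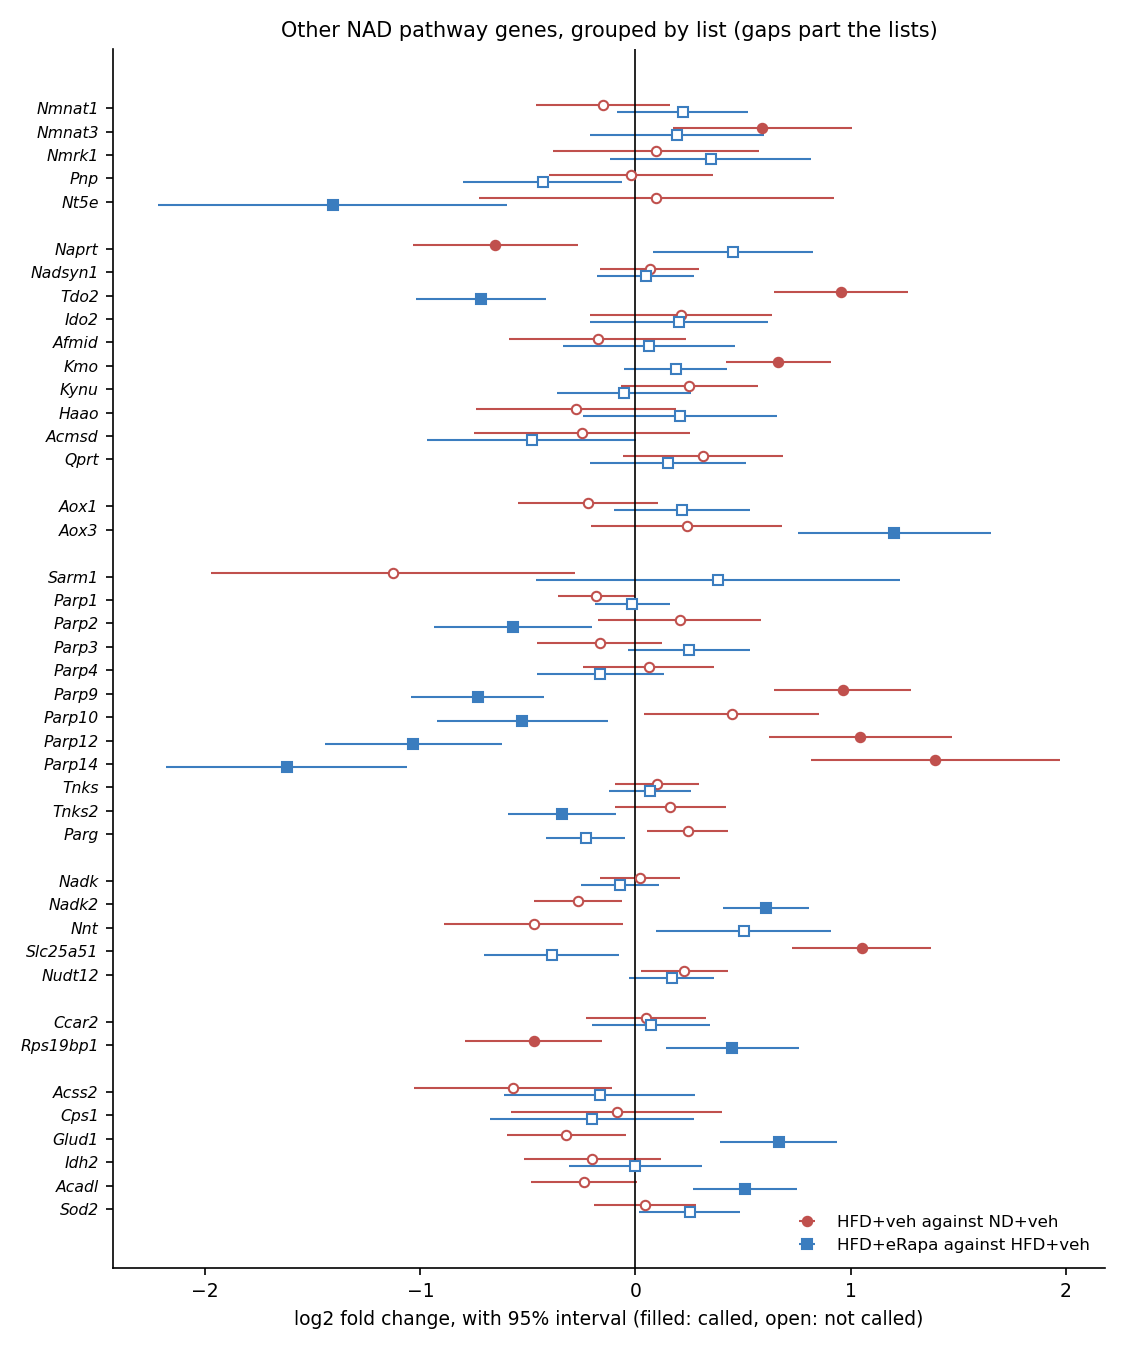
Log2 fold changes (x axis) with 95% intervals of the 42 tested NAD pathway genes (rows, lists parted by gaps) for HFD+veh against ND+veh (circles) and HFD+eRapa against HFD+veh (squares), filled where called. Parp9, Parp12 and Parp14 lie at 0.96 to 1.39 in the first contrast and at -0.73 to -1.62 in the second, and Aox3, Nadk2, Glud1 and Acadl are called higher in the second.

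Among the other consumers of NAD, the genes called with diet were family members that interferon is known to induce. Parp12 (1.05 ± 0.217, adjusted p = 0.00222), Parp14 (1.39 ± 0.295, adjusted p = 0.00258) and Parp9 (0.96 ± 0.163, adjusted p = 0.000398, named after its values were seen) rose in HFD+veh over ND+veh, 3 of 12 tested genes of the list where 16.0% of all genes were called higher. In HFD+eRapa against HFD+veh 6 of 12 fell, where 21.1% of all genes were called lower. Parp14 ran from 54.8 to 207 CPM in HFD+veh and from 22 to 48.2 CPM in HFD+eRapa with no overlap (-1.62 ± 0.286, adjusted p = 0.000426), and Parp12 fell by 1.03 on the log2 scale (adjusted p = 0.00125). Parp9, Parp2, Parp10 and Tnks2, likewise named after their values were seen, changed by -0.73, -0.57, -0.53 and -0.34. Parp1, the most studied DNA repair polymerase of the family, was not called (-0.18 and -0.01). The immune marker sums given above differ between these same groups, and Parp12 and Parp14 stayed called in both contrasts with the immune covariate. With the endothelial, stellate and cholangiocyte covariate both lost the call of the second contrast, at -0.70 (adjusted p = 0.0880) and -0.82 (adjusted p = 0.0628).

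Among kinases, carriers and redox enzymes, Slc25a51, the carrier that brings NAD into mitochondria, rose in HFD+veh over ND+veh (1.05 ± 0.165, adjusted p = 0.000189), from 31.4 to 67.5 CPM to 62.4 to 131 CPM, and was still higher in HFD+eRapa relative to ND+veh (0.66 ± 0.156, adjusted p = 0.00516). In HFD+eRapa relative to HFD+veh it was not called by the main fit. Some alternatives called it lower there, among them limma on log2(FPKM + 1) (-0.54, adjusted p = 0.0154) and the immune covariate (-0.54, adjusted p = 0.0473). Nadk2, the mitochondrial NAD kinase, rose with eRapa over HFD+veh without overlap, from 114 to 185 CPM to 195 to 259 CPM (0.61 ± 0.103, adjusted p = 0.000269), whereas the cytosolic Nadk was not called (-0.07, adjusted p = 0.583). Nudt12, a NADH pyrophosphatase, was higher in HFD+eRapa relative to ND+veh (0.40 ± 0.0968, adjusted p = 0.00676). Nnt, the mitochondrial transhydrogenase, stood at 1.62 to 4.53 CPM over all libraries and was not called in any contrast of the main fit. Another gene ID carries the same symbol, and the one with the larger total count was used. Without HFD+veh replicate 5, Nnt was called lower in HFD+veh against ND+veh (-0.62, adjusted p = 0.0384). In HFD+eRapa against HFD+veh it was called higher without HFD+veh replicate 5 (0.65, adjusted p = 0.0207) or replicate 2 (0.58, adjusted p = 0.0396).

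Among enzymes known to be deacylated by sirtuins, 2 of 6 tested genes were called with eRapa on the high-fat diet, both higher, where 10.9% of all genes were called higher and 21.1% lower. Glud1, glutamate dehydrogenase, was higher in HFD+eRapa relative to HFD+veh (0.67 ± 0.138, adjusted p = 0.00147), as was Acadl (0.51 ± 0.123, adjusted p = 0.00396, named after its values were seen). The Glud1 call was lost with the endothelial, stellate and cholangiocyte covariate (0.47, adjusted p = 0.0809), and that of Acadl with it (0.35, adjusted p = 0.158) and with the immune covariate (0.39, adjusted p = 0.0876). Acss2 was lower in HFD+eRapa relative to ND+veh (-0.73 ± 0.219, adjusted p = 0.0260), a call lost under 7 alternatives, among them leaving out ND+veh replicate 2, 5 or 7 (adjusted p up to 0.0537). Cps1, the urea cycle enzyme that Sirt5 desuccinylates, was not called (-0.20 against HFD+veh, adjusted p = 0.557). These are transcript levels, and acylation was not measured. Of the Sirt1-binding regulators, Rps19bp1 was lower in HFD+veh relative to ND+veh (-0.47 ± 0.162, adjusted p = 0.0342) and higher in HFD+eRapa relative to HFD+veh (0.45 ± 0.158, adjusted p = 0.0323), both lost with either marker covariate. Leaving out 1 library also ended these calls, in 5 cases for the first (ND+veh replicates 5, 7 and 8, HFD+veh replicates 2 and 6, adjusted p up to 0.0558) and in 6 for the second (HFD+veh replicates 2 and 6, HFD+eRapa replicates 3, 5, 6 and 8, adjusted p up to 0.0707). Ccar2, which inhibits Sirt1, was not called (0.05 and 0.07).

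The genes whose log2 CPM ran most like each called member over the 24 libraries were found among 7805 candidates. Cd38 was closest to Msn (Pearson r = 0.985), Ptprc, the pan-leukocyte surface phosphatase (0.981), and Ctss (0.980), and with group means removed these stood at 0.978, 0.974 and 0.971. Nampt was closest to Ppt1 (0.906), Snx10 (0.898) and Nt5c3 (0.896), Nnmt to Zap70 (0.888), Sfxn1 (0.881) and Apon (0.863), and Sirt5 to Lrg1 (0.922), Tmem120a (0.918) and Dap3 (0.915). With group means removed these were lower, at 0.776, 0.830 and 0.891 for Nampt in the same order. They stood at 0.786, 0.775 and 0.789 for Nnmt and at 0.820, 0.802 and 0.797 for Sirt5. Among the members themselves, with group means removed, Cd38 ran opposite to Sirt4 (r = -0.840), Sirt7 (-0.806), Sirt2 (-0.759), Sirt3 (-0.754) and Sirt5 (-0.627). Its r was -0.440 with Sirt6 and 0.245 with Sirt1. Nampt ran opposite to Sirt2 (-0.849) and Sirt5 (-0.604) among others, while Sirt5 ran with Sirt4 (0.780). These values describe 24 libraries whose CPM are shares of each library's total and which share depth and cell makeup gene by gene, and no test was run on them.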

How the data were processed

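RNA was sequenced from hepatocytes of 24 mice, 1 library per animal, and the labels place all libraries in 1 batch. The authors aligned reads to mm10 (Gencode vM23) with STAR, filtered them with SAMtools 1.1.0, and deposited raw whole-number counts per gene from HTSeq 0.11.2 (use of strand not stated). They also deposited FPKM values computed with Cufflinks. Groups came from the labels.

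Counts were tested with edgeR 4.0.16 (filterByExpr, TMM, robust quasi-likelihood fit of 24 libraries and 3 groups) in R 4.3.3, with Benjamini-Hochberg adjustment over all genes tested. CPM use TMM-scaled library sizes, log2 CPM a prior count of 2, and intervals are 95%. No pair of libraries within a group agreed within sampling noise (chi-square per degree of freedom at least 12.9). The fits were tested on simulated counts, where many but not all of the changed genes were called. Promoters came from RefSeq (GRCm38.p6), where Nnmt had no entry, and gene positions from Gencode vM21.

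The 10 members, the gene lists and the tests were chosen with earlier results of these data known. All members are named. A gene left out of the NAD lists is not reported here. From each NAD list the called genes with the largest change (up to 2 per contrast) are named, plus Nmnat1, Qprt, Tdo2, Aox1, Parp1, Nadk, Nnt, Ccar2 and Cps1, and the 3 most similar genes of each called member among those with a mean log2 CPM of at least 3.

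Alternatives were DESeq2 1.42.0, limma 3.58.1 (voom, and log2 FPKM with pseudocounts 1 and 0.1), DESeq2 size factors, other filters, only the 2 groups compared, the replicate number as a block, 2 marker scores as covariates (the immune one a mean z-score of the 18 of 27 markers past the filter), and each library left out. Added after the data were seen were a fit without ND+veh replicate 4 and HFD+veh replicate 6, and the relation of Nampt to immune markers. Marker sums were compared by two-sided exact permutation tests, and relations within groups by exact permutation of pairings.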

Additional observations from a re-analysis of the deposited data

Results flagged for a closer look

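In 5 results 1 animal stood far from the rest of its group by Dixon's criterion on log2 values, out of 51 groups of values examined. Chance alone flags about 1 group in 20. Levels are given below in CPM. Sirt2 in ND+veh replicate 8 stood at 33.8 CPM, the lowest of 8 animals. In HFD+veh replicate 6, Sirt2 stood at 23.7 CPM and Sirt3 at 19.8 CPM, each the lowest of 7 animals. That animal also had the highest Cd38, Nampt and summed immune marker levels of its group, and the part of the markers in its low sirtuin values was not tested. In ND+veh replicate 4, the summed cholangiocyte markers stood at 20.3 CPM, the highest of 8, and the summed hepatocyte markers at 63014 CPM, the lowest of 8. Its Nnmt level, 9.07 CPM, was the second lowest of ND+veh.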

How the results depend on the processing

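Counts of members called moved by over 1.5 times in the following fits. Between HFD+eRapa and HFD+veh, 3 members were called, and 1 with the immune marker covariate (Nampt). With the endothelial, stellate and cholangiocyte covariate 0 were called, and edgeR gave 1 higher and 2 lower at an unadjusted p under 0.05. These were not the same 3 members, since in that fit the Cd38 log2 fold change reversed to 0.27 and Cd38 was not among the 2 lower. DESeq2 and limma voom without covariates called 3. Between HFD+eRapa and ND+veh, 2 were called, 1 without a filter on low counts, 1 without ND+veh replicate 4 and HFD+veh replicate 6, and 4 with the endothelial, stellate and cholangiocyte covariate, where Cd38 reversed to 0.78 and was called. With 1 library left out the counts ran from 2 to 3, 2 to 3 and 1 to 2 in the 3 contrasts in order. Mean z-scores in place of summed CPM kept every direction for the marker lists that had passed, but macrophage (0.92) and lymphocyte (0.85) differences of HFD+veh over ND+veh and lymphocyte (-0.83) and cholangiocyte (-0.60) differences of HFD+eRapa over HFD+veh no longer passed. With z-scores r was 0.712 for Cd38 in HFD+veh, no longer past the threshold after adjustment, and -0.891 for Nnmt and 0.835 for Nampt in ND+veh, now past it.

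Replicate numbers are shared between groups but belong to different animals. Same-numbered libraries correlated from -0.66 to 0.73 after removal of group means, so the numbers were not taken as pairs. With the replicate number as a block 2, 2 and 2 members were called, Cd38 being lost in the first and second contrasts (2.29, adjusted p = 0.0630, and -1.93, adjusted p = 0.116).

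Over all genes, 3584, 4432 and 1865 were called in the 3 contrasts. The immune covariate gave 1227 and 973 in the first and second, the endothelial, stellate and cholangiocyte covariate 1764, 771 and 2858, log2(FPKM + 1) without a filter 1580, 2840 and 1118. In the first contrast only the 2 groups gave 2333, log2(FPKM + 0.1) 2340, leaving out HFD+veh replicate 6 2106, and leaving out both doubted libraries 2300. In the second, at least 10 counts in every library gave 2809 and the block 2532. Of the fold changes of members and named genes, 134 changed sign where neither fit called them. The causes were not tested. Sirt6 rests on 20 to 125 counts per library.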
